A study of Mus musculus with 10 samples.

Results

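The gene set described here holds 35 genes that mark marrow fat cells or carry out the uptake, synthesis, storage and release of fat. Its members were taken from the array by gene name or transcript accession. All 35 had at least 1 probe (63 probes in all), and 34 were bright enough to be tested, out of 18955 tested genes with a current name. Adrb3, the beta-3 adrenergic receptor through which noradrenaline starts fat breakdown, had 1 probe that was not well above background on any of the 10 arrays, and it was not tested. Expression was measured in total RNA of the femur from 10 male ICR mice aged 6 months, with 1 Cy3-labelled Agilent one-colour array per animal. Of these, 5 walked freely in their cages as controls, and 5 hung by the tail, head down, for 24 h, so that their hind legs bore no weight. Mice of both groups were housed alone with free access to food and water, the labels name no genetic alteration, and the labels do not say whether marrow was left in the bone. The comparison asks how the femur's transcripts differ after a day without hindlimb loading.

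Marrow adipocytes are fat cells that arise from stromal cells of the bone marrow and lie between the blood-forming cells. Like other white fat cells they take up fatty acids that lipoprotein lipase frees at the vessel wall, join them to glycerol phosphate to make triglyceride, store the triglyceride in a droplet coated with perilipin and CIDE proteins, and release it again by lipolysis. They also secrete hormones such as adiponectin and leptin. As total femur RNA was measured, fewer fat cells and less RNA per fat cell cannot be told apart in any value given here. Several members (among them Car3, Slc2a4, Lpl and Ucp3) are also made by skeletal muscle.

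Promoters of 23 members were taken from the RefSeq table used (29 promoters, each 250 bases before to 50 bases after the transcript start, assembly GRCm38.p6). Cidea was left out of this search beforehand. The promoters of 4 fat cell genes whose levels were high and low in the same animals are shown, 5′ to 3′ on the gene's own strand. Capitals mark matches, on either strand, to the C/EBP motif TTGCNNAA or to the CCAAT box.

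Adipoq: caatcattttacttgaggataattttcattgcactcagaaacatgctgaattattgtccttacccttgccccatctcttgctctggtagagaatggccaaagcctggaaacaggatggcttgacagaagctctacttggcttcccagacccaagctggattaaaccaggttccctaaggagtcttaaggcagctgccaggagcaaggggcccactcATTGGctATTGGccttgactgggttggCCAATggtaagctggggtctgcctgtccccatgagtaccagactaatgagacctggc
Plin1: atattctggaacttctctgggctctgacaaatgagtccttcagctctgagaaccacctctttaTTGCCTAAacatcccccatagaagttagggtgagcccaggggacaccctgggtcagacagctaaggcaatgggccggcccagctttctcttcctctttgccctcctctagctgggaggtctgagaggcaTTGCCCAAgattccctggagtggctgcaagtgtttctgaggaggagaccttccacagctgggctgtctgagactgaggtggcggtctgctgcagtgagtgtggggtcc
Cidec: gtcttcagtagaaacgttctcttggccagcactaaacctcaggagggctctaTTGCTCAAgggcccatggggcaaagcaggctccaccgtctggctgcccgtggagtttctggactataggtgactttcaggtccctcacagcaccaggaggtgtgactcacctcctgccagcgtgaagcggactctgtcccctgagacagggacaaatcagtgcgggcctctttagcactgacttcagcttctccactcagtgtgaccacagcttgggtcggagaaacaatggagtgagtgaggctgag
Cfd: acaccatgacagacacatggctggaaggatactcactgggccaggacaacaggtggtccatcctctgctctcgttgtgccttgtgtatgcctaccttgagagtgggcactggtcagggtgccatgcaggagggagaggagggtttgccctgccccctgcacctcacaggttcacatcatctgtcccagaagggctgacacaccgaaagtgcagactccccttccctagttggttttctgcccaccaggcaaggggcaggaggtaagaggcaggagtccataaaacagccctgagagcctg

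The Adipoq promoter lies at chr16:23146286-23146585 on the plus strand, and its 3 CCAAT matches begin at positions -34, -27 and -7 from the start. For Plin1, at chr7:79732727-79733026 on the minus strand, the C/EBP matches begin at -187 and -58. The Cidec promoter shown, at chr6:113434715-113435014 on the minus strand, has a C/EBP match at -198, and the second Cidec promoter in the table has none. In the Cfd promoter, at chr10:79890603-79890902 on the plus strand, none of the searched motifs was found. The C/EBP motif was present in 3 of the 29 member promoters (10.3%) and in 10.8% of all 32851 promoters of that length. CCAAT was found in 6 member promoters (20.7%) against 37.4% of all, and TATAAA in 1 (3.45%, Cebpa) against 13.6%. The nuclear receptor half-site AGGTCA stood in 7 (24.1%) against 16.3%. Both Aqp7 promoters are among these, and they overlap, so that their matches at -223 and -49 are the same site. The PPAR and RXR direct repeat, which is that half-site written in tandem with 1 base between the copies, stood in 0 member promoters and in 0.0396% of all. A match is a stretch of letters, and binding was not measured.

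No member passed the test for a difference after unloading. With limma and Benjamini-Hochberg adjustment over 38629 probes, 0 of the 34 tested members were called at an adjusted p below 0.05, where 0.00528% of all tested genes (1 gene) were called. The smallest adjusted p among the members was 0.252, for Pck1. At an unadjusted p below 0.05 limma gave 1 member, which was lower after unloading, against 15.8% of all genes in either direction and 5.87% in the lower direction. The control and unloaded animals overlapped for all 34 members, whereas they did not overlap for 3.3% of all genes. In sign, 22 members were lower and 12 higher in unloaded femur, so that 64.7% were lower, against 39.6% of all genes. The members' differences had a median of -0.03 on the log2 scale, between -0.70 and 0.22, and the median of all genes was 0.05. That balance of signs moved with the scaling and the covariates, with 26 members lower after scaling on the array median, 19 after quantile normalization and 16 with body weight in the model. The median of all probes moved in the same settings, from 0.07 to -0.03, 0.01 and 0.05. The share of all genes that were lower was not counted there.

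**Figure D1:**
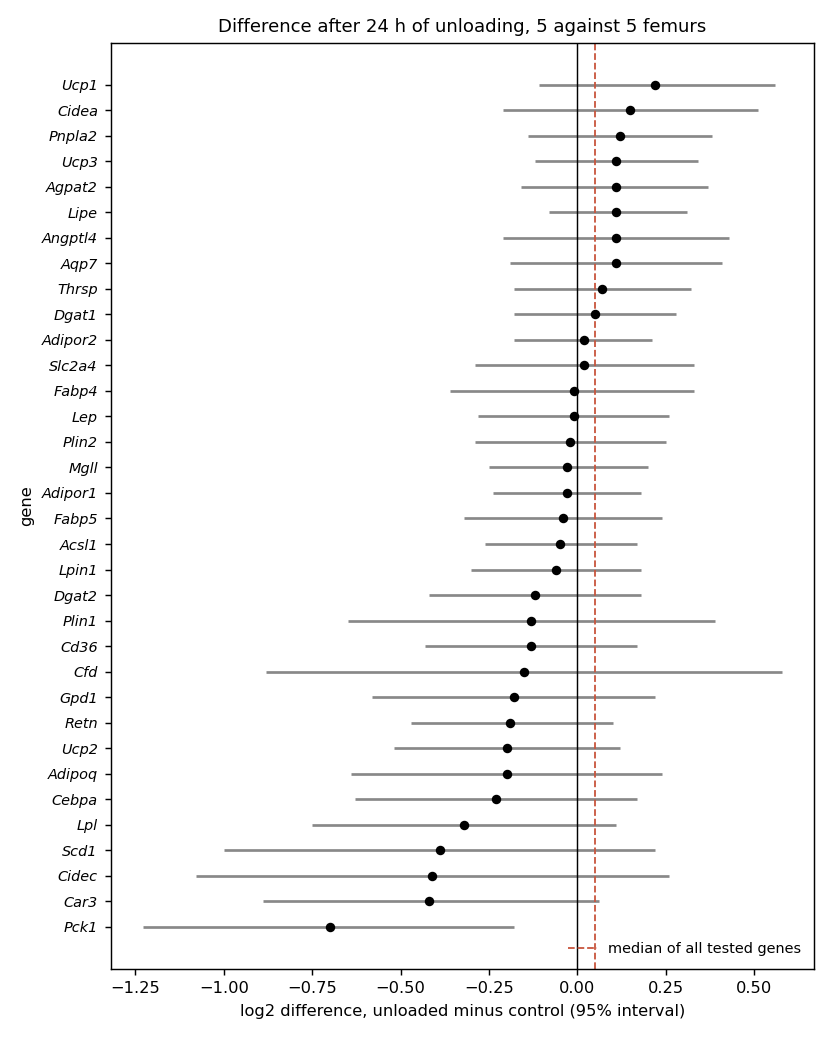
Difference in level (unloaded minus control, log2) of each tested member on the horizontal axis, with its 95% interval from limma as a grey bar, for 5 unloaded against 5 control femurs. The interval of Pck1 alone (-1.23 to -0.18) leaves out 0. The dashed line is the median of all tested genes, 0.05.

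All levels below are log2 values relative to the 75th percentile of the animal's array, listed for controls 1 to 5 and unloaded animals 1 to 5, with the control mean always subtracted from the unloaded mean. Controls 1 to 4 were hybridised on slide 1, control 5 and unloaded animals 1 to 3 on slide 2, and unloaded animals 4 and 5 on slide 3. The scanner software rated 89.8% to 95.5% of an array's spots as well above background, and having 5 arrays in each group bounds the precision of all values.

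Adiponectin (Adipoq), the insulin-sensitising hormone that fat cells secrete, stood at 2.15, 2.91, 3.04, 2.38 and 2.44 in the controls and at 1.70, 2.53, 2.46, 2.43 and 2.79 in the unloaded animals. The group ranges overlapped, control 3 being the highest animal and unloaded 1 the lowest. The difference was -0.20 (SE 0.21, 95% interval -0.64 to 0.24, limma adjusted p = 0.597), and it ranged from -0.31 without control 1 to -0.03 without unloaded 1. Adipsin (Cfd, complement factor D), a protease that fat cells release in quantity, had levels of 3.31, 4.52, 5.27, 4.08 and 4.22 in control bone and of 3.45, 4.52, 3.64, 4.02 and 5.04 in unloaded bone. Its 10 animals spanned 1.96 on the log2 scale, a 3.88-fold range, with control 3 and unloaded 5 on top and control 1 and unloaded 1 at the bottom. The group difference of Cfd was small beside that range, at -0.15 (SE 0.34, 95% interval -0.88 to 0.58, limma adjusted p = 0.829), and it came to 0.10 without control 3. Resistin (Retn), a further fat cell hormone in mice, lay between -1.19 and -0.70 in controls and between -1.33 and -0.76 in unloaded animals. Of the unloaded values 4 of 5 were below the control median, and unloaded 5 was the exception. Leptin (Lep), the hormone that reports fat stores to the brain, differed by -0.01 (95% interval -0.28 to 0.26), with controls between -2.67 and -2.37 and unloaded animals between -2.88 and -2.17. All 4 hormone genes thus had a negative difference, none of which passed the test (smallest adjusted p 0.456). The 4 signs held under the other scalings tried, while Lep turned to 0.07 without unloaded 2 and Cfd to 0.08 with body weight as a covariate.

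Among the genes of fatty acid uptake, lipoprotein lipase (Lpl), which cuts fatty acids from circulating lipoproteins, had levels of 3.61, 4.32, 4.14, 3.89 and 3.44 in controls and 3.82, 4.06, 3.37, 3.49 and 3.06 after unloading. The difference was -0.32 (SE 0.20, 95% interval -0.75 to 0.11, limma adjusted p = 0.404), and a second probe gave -0.30. With slide as a block, where only slide 2 informs the difference, it turned to 0.31, and without unloaded 5 it was -0.19. Angptl4, a secreted inhibitor of lipoprotein lipase that fasting induces, spanned 2.81 to 3.42 in controls and 2.80 to 3.59 in unloaded animals, the highest being unloaded 1 (difference 0.11, SE 0.15). Cd36, a fatty acid transporter of the cell surface, differed by -0.13 (SE 0.14), with controls 2 and 3 at 1.02 and 1.33 above every unloaded animal. The fatty acid carrier Fabp4 stood at 4.74, 5.46, 5.60, 5.13 and 5.04 in controls and at 5.00, 5.18, 5.03, 5.11 and 5.56 in unloaded animals. These values gave a difference of -0.01 (SE 0.16, 95% interval -0.36 to 0.33), with control 3 and unloaded 5 at nearly the same top level. A second, dimmer probe gave -0.14 and the last of the gene's 3 probes 0.02. That last probe had no value on unloaded 3, and averaging all 3 probes gave -0.25, and averaging those measured on every array, an alternative chosen after seeing the data, gave -0.07. Fabp5, a related carrier found in skin and macrophages as well, differed by -0.04 (SE 0.13), and by -0.44 with slide as a block, where it was the 1 member at an unadjusted p below 0.05 (limma adjusted p = 1).

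The receptors for adiponectin were among the steadiest members. Adipor1 spanned 1.92 to 2.32 over the 10 animals and differed by -0.03 (SE 0.10). Adipor2 spanned 4.07 to 4.41 and differed by 0.02 (SE 0.09). Their other probes, which were dimmer, had the opposite sign, at 0.09 and 0.08 for Adipor1 and -0.17 and -0.22 for Adipor2.

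The largest difference among the members was that of Pck1, the cytosolic phosphoenolpyruvate carboxykinase through which fat cells make glycerol phosphate from lactate and pyruvate. Its levels were -0.35, 0.71, 0.69, 0.65 and 0.08 in controls and -0.51, -0.24, -0.94, -0.39 and 0.36 in unloaded animals. Every unloaded animal (5 of 5) lay below the control median, but control 1 lay below unloaded animals 2 and 5, so the groups overlapped. The mean was 0.36 ± 0.47 (SD, n = 5) in control and -0.35 ± 0.47 (SD, n = 5) in unloaded bone, 1.63-fold higher in control (difference -0.70, SE 0.24, 95% interval -1.23 to -0.18). The unadjusted limma p was 0.0117 and the adjusted p 0.252, so Pck1 did not pass the test. It kept its sign in all 24 alternatives, between -0.88 and -0.56, with limma adjusted p-values between 0.14 and 1. The value of -0.88 was reached without control 1 and also without unloaded 5. With slide as a block the difference was -0.65 (limma adjusted p = 1).

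Gpd1, the cytosolic glycerol 3-phosphate dehydrogenase that makes glycerol phosphate from glucose, had levels of 2.11, 3.34, 2.97, 2.85 and 2.44 in controls and of 2.65, 2.64, 2.44, 2.41 and 2.63 after unloading. All 5 unloaded values lay below the control median and within the control range (difference -0.18, SE 0.19, limma adjusted p = 0.595), and the difference became 0.14 with slide as a block and -0.03 without control 2. Unloaded animals spread less than controls for this gene, with SDs of 0.12 and 0.48. The insulin-responsive glucose transporter Slc2a4 (GLUT4) lay between 1.91 and 2.39 in controls and between 1.80 and 2.61 in unloaded bone, and differed by 0.02 (SE 0.14). Its highest animal was unloaded 1. Aqp7, the channel by which glycerol leaves fat cells, differed by 0.11 (SE 0.14), and this rested on unloaded 5 at -0.96, without which the difference was -0.01.

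In triglyceride synthesis, Scd1, the desaturase that makes oleate from stearate, had levels of 1.79, 3.52, 3.16, 2.56 and 1.93 in controls and 2.03, 2.49, 1.99, 2.05 and 2.45 in unloaded animals. Controls 2 and 3 stood above every unloaded animal, while controls 1 and 5 stood below all of them. The mean was 2.59 ± 0.75 (SD, n = 5) against 2.20 ± 0.25 (SD, n = 5), a difference of -0.39 (SE 0.28, 95% interval -1 to 0.22, limma adjusted p = 0.465). It was -0.16 without control 2, -0.59 without control 1 and 0.24 with slide as a block. Dgat2, which joins the last fatty acid to triglyceride, differed by -0.12 (SE 0.14), and its partner Dgat1 by 0.05 (SE 0.11). Earlier steps of the pathway differed as little. Acsl1, which activates fatty acids with coenzyme A, differed by -0.05, Agpat2, which makes phosphatidic acid, by 0.11, and Lpin1, the phosphatase that yields diacylglycerol, by -0.06. Thrsp, a thyroid hormone responsive protein that promotes fatty acid synthesis, differed by 0.07. Of these 7 genes 3 were higher and 4 lower, with a smallest adjusted p of 0.465.

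For the droplet proteins of white fat, animals of a group differed more than the group means did. Perilipin 1 (Plin1), the coat protein that guards the droplet from lipases, had levels of 0.01, 1.17, 1.01, 0.83 and 0.43 in controls and 0.00, 0.69, 0.32, 0.50 and 1.27 in unloaded animals. Unloaded 5 was the highest of all 10 and unloaded 1 was level with control 1 at the bottom (difference -0.13, SE 0.24, 95% interval -0.65 to 0.39, limma adjusted p = 0.783). Cidec, which fuses small droplets into the single large droplet of white fat cells, stood at 0.86, 2.50, 2.47, 1.81 and 1.72 in controls and at 0.89, 1.75, 1.00, 1.42 and 2.25 in unloaded bone. Control 1 and unloaded 1 were again the lowest animals, and the difference was -0.41 (SE 0.31, 95% interval -1.08 to 0.26, limma adjusted p = 0.481). It was -0.66 without control 1 (limma adjusted p = 0.3) and -0.25 without control 2, with the same sign in all alternatives tried. Plin2, the coat of small droplets in many cell types, differed by -0.02 (SE 0.13) and had unloaded 5 as its lowest animal at 2.54. Cidea, the droplet protein of brown fat, differed by 0.15 (SE 0.17), and control 4 at -0.66 stood apart from the other controls, the next of which was at -1.23.

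For the lipases that release stored fat, the group means were close, and for Lipe and Mgll the animals were close too. Hormone-sensitive lipase (Lipe) had levels of -0.30, -0.05, -0.38, -0.21 and -0.14 in controls and of -0.08, -0.18, -0.14, -0.02 and -0.10 in unloaded animals. All 5 unloaded values were above the control median of -0.21, but control 2 lay above 4 of them (difference 0.11, SE 0.09, 95% interval -0.08 to 0.31, limma adjusted p = 0.507). Pnpla2 (ATGL), which starts lipolysis, differed by 0.12 (SE 0.12), with unloaded 5 at 2.88 and the other unloaded animals between 2.36 and 2.39, and by 0.02 without unloaded 5. Mgll, which completes it, differed by -0.03 (SE 0.10).

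Cebpa, a transcription factor that sets the fat cell programme, had levels of 0.42, 0.63, 0.70, 0.19 and 0.39 in controls and 0.36, 0.58, 0.06, 0.66 and -0.47 in unloaded animals. Unloaded 5 was by far the lowest, and the difference of -0.23 (SE 0.19) was -0.05 without it and had the opposite sign on a second, dimmer probe (0.15). Carbonic anhydrase 3 (Car3), abundant in both white fat and slow muscle, stood at 3.30, 4.37, 4.25, 3.60 and 3.35 in controls and at 3.54, 3.74, 3.49, 2.91 and 3.10 after unloading. Controls 2 and 3 were above every unloaded animal, and the difference was -0.42 (SE 0.22, 95% interval -0.89 to 0.06, limma adjusted p = 0.351), but 0.24 with slide as a block and -0.27 without control 2. The uncoupling proteins let protons back into the mitochondrion or carry metabolites across its inner membrane. Ucp1, the heat-producing protein of brown fat, had levels of -1.67, -1.47, -2.08, -1.46 and -1.66 in controls and -1.31, -1.82, -1.70, -1.22 and -1.16 in unloaded animals, the largest positive difference of the set at 0.22 (SE 0.15, 95% interval -0.11 to 0.56, limma adjusted p = 0.445). The groups overlapped between -1.82 and -1.46, and unloaded animals 1, 4 and 5 lay above every control. With slide as a block the Ucp1 difference was 0.05. Ucp2, which macrophages and many other cells express, differed by -0.20 (SE 0.15) and by -0.08 without unloaded 5, and Ucp3, the muscle form, by 0.11 (SE 0.11).

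**Figure D2:**
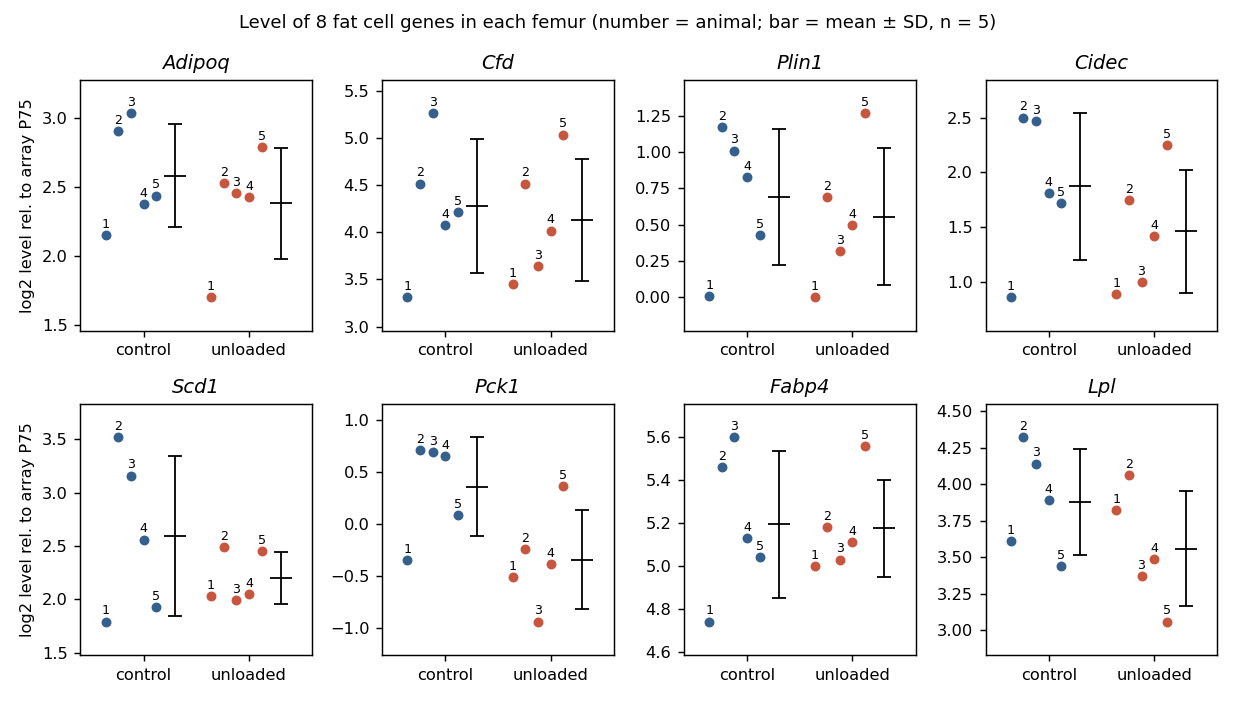
Level (log2 relative to the array's 75th percentile) of 8 members in each femur, with points numbered by animal and black bars showing mean ± SD (n = 5). Controls 2 and 3 and unloaded 5 lie high for Adipoq, Cfd, Plin1, Cidec and Fabp4, while unloaded 5 is the lowest animal for Lpl.

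Differences between animals of the same group were wide for some members and narrow for others. The within-group SD had a median of 0.24 over the 34 members and of 0.19 over all genes, and 11 members exceeded the 90th percentile of all genes, which was 0.3. Cfd (SD 0.68) was more variable than 99.7% of genes, Cidec (0.62) than 99.5%, Scd1 (0.56) than 99.3%, and Pck1 and Plin1 (both 0.47) than 98.4%. Car3, Adipoq, Lpl, Cebpa, Gpd1 and Cidea made up the rest of the 11. At the other end, Lipe (SD 0.10) exceeded only 7.58% of genes and Adipor2 (SD 0.11) 9.55%.

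**Figure D3:**
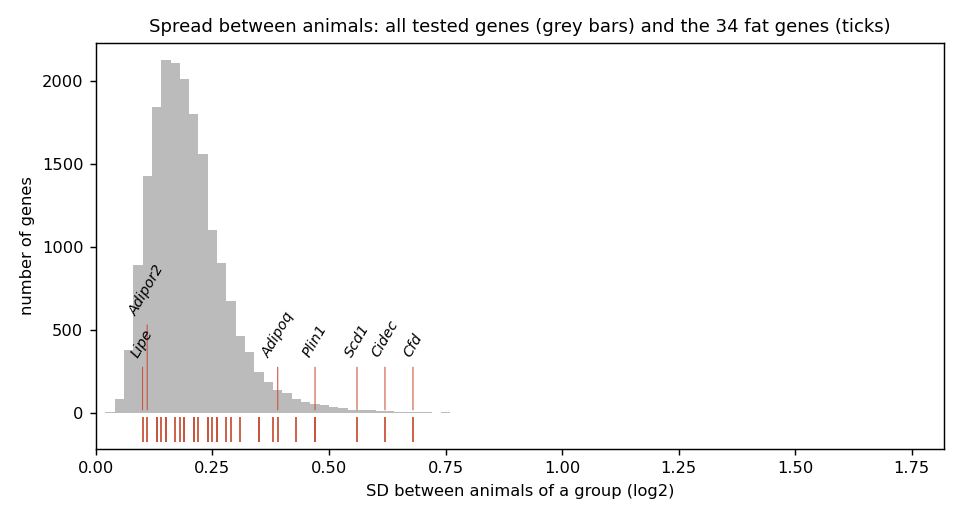
Histogram of the within-group SD (log2, horizontal axis) of all 18955 tested genes as grey bars, with the 34 members as ticks below the axis. Cfd at 0.68 and Cidec at 0.62 lie in the right tail, and Lipe at 0.10 and Adipor2 at 0.11 on the left.

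Several members shared their high and low animals. Among controls, control 3 was the highest animal for 14 and control 2 for 13 of the 34 members (41.2% and 38.2%), against 20.5% and 16.1% of all genes. Control 1 was the lowest control for 19 members (55.9%), against 16.7% of all genes. Among unloaded animals, unloaded 5 was the highest for 16 members (47.1%), against 35.7% of all genes. The array of unloaded 5 stood furthest from its own group over all probes, with a mean correlation of 0.976 against 0.983 to 0.989 for the other arrays. It also had the lowest share of spots well above background (89.8%). For 7 members (20.6%), namely Adipoq, Retn, Cfd, Fabp4, Dgat2, Plin1 and Cidec, the 3 highest of the 10 arrays were control 2, control 3 and unloaded 5, which held for 0.923% of all genes. Of the 11 most variable members 4 (Adipoq, Cfd, Plin1 and Cidec) were among these 7. Others of the 11 did not follow that order, since unloaded 5 was the lowest animal for Lpl and Cebpa and was below every control for Car3, and Cidea was highest in control 4. These animals were singled out after their values were seen, so the shares are a description and carry no test. Controls 1 to 4 were hybridised on the same slide, so the gap between control 1 and controls 2 and 3 lay within slide 1. Plin4, a perilipin of white fat that is no member, had levels of 1.15, 2.75, 2.47, 2.24 and 1.78 in controls and 1.57, 1.73, 1.45, 1.62 and 2.14 in unloaded animals, with control 1 lowest and controls 2 and 3 highest.

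**Figure D4:**
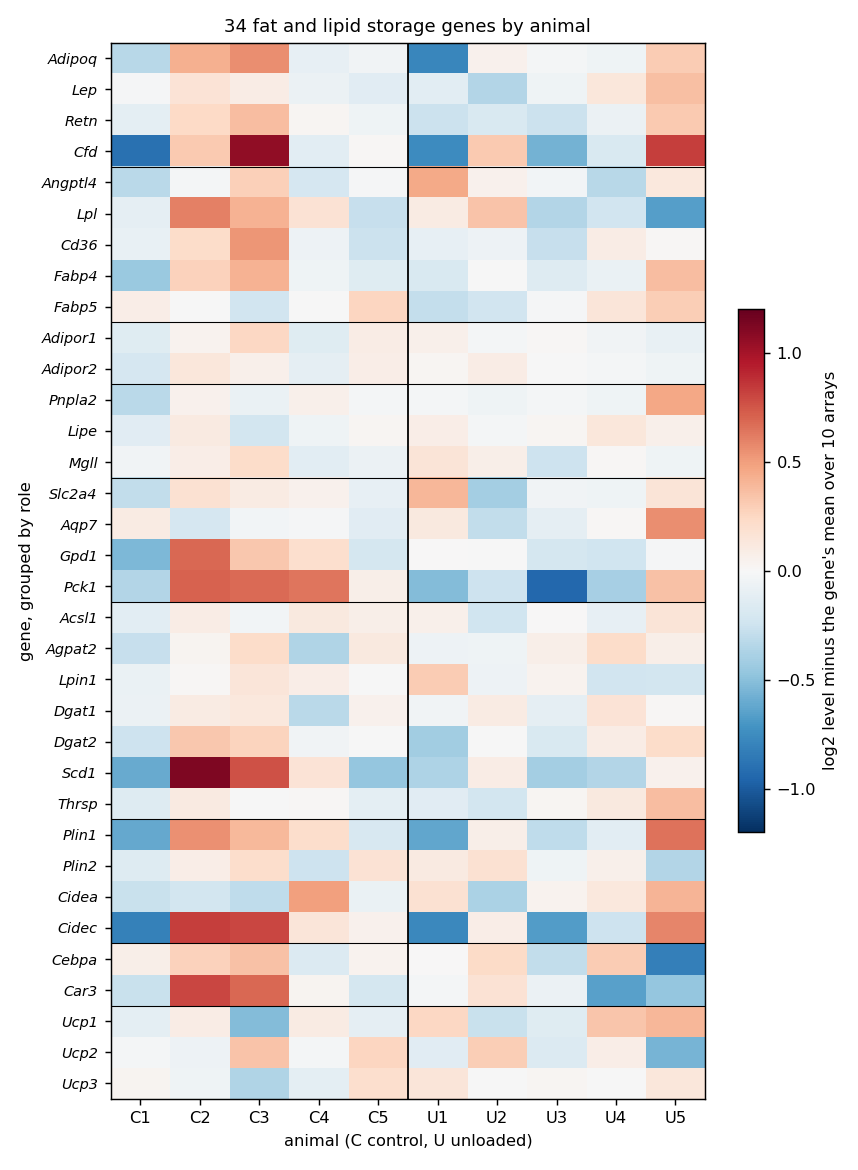
Level of each tested member in each animal (columns: controls C1 to C5, unloaded U1 to U5) minus that gene's mean over the 10 arrays, in log2 units by colour, with genes grouped by role. Cfd, Plin1 and Cidec are red in C2, C3 and U5 and blue in C1 and U1.

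Marker lists of the cell types a femur sample can hold were set beside these values. The adipocyte list had 12 usable genes, 11 of them members, with Adrb3 not well above background. Its mean log2 level was 0.92, 1.55, 1.59, 1.24 and 1.17 in controls and 0.95, 1.22, 1.05, 1.15 and 1.56 in unloaded animals, and its summed linear level ranged from 59.8 to 129 and from 67 to 110. Of its genes 3 were higher and 9 lower, none was called, and Pparg, the fat cell master regulator and the only used gene that is no member, differed by -0.12 (limma adjusted p = 0.485). Skeletal muscle genes, all 15 of them well above background, varied even more. Their mean was 2.59, 3.85, 3.66, 3.28 and 2.96 in controls and 3.86, 2.92, 3.23, 2.94 and 2.82 in unloaded animals, with summed levels of 199 to 466 and 243 to 472. Controls 2 and 3 were high on both lists and control 1 was lowest on both. Unloaded 1 was low on the fat list and the highest animal on the muscle list, and unloaded 5 was high for fat and the lowest unloaded animal for muscle. Slc2a4 and Angptl4 had their highest level in unloaded 1, and Lpl and Cebpa had their lowest in unloaded 5. Other members also made by muscle did not follow these animals. Car3 was highest in control 2 (4.37) and lowest in unloaded 4 (2.91). Ucp3 was highest in control 5 (-1.74) and lowest in control 3 (-2.30), which was high on the muscle list. Whether muscle in the sample sets any of these values was not tested.

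**Figure D5:**
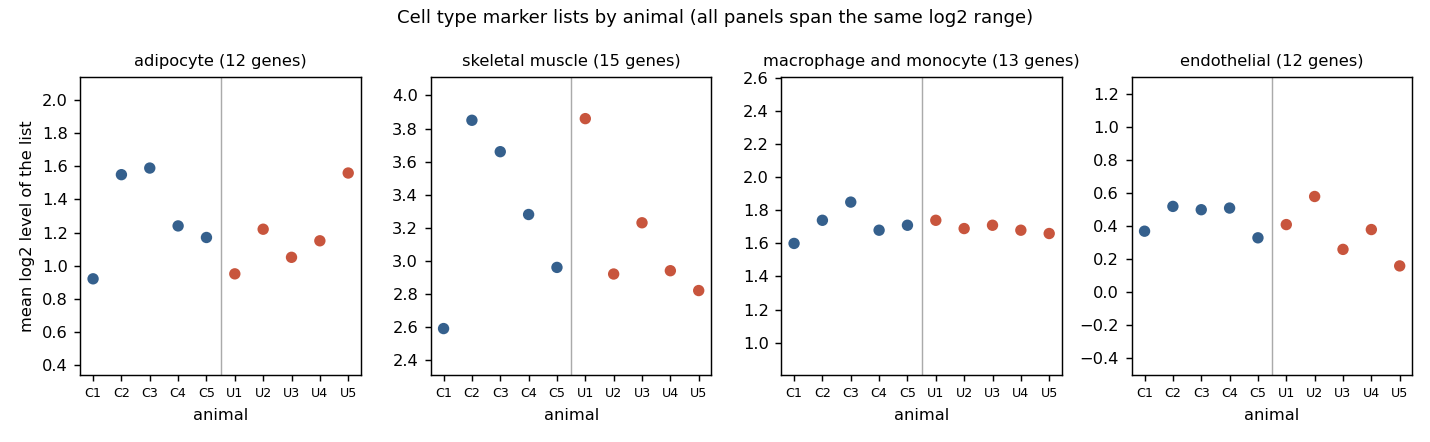
Mean log2 level of 4 cell type marker lists in each animal (controls C1 to C5 in blue, unloaded U1 to U5 in red), each panel covering the same span. The adipocyte list is high in C2, C3 and U5, the muscle list in C2, C3 and U1, and the macrophage and monocyte list stays between 1.6 and 1.85.

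Markers of the other cell types, given next, differed less between animals than those of fat and muscle. The summed level of 13 macrophage and monocyte genes lay between 184 and 196 in controls and between 179 and 197 in unloaded animals, that of 12 endothelial genes between 20.3 and 23.1 and between 19.3 and 24.3, and that of 11 osteoblast and osteocyte genes between 309 and 339 and between 338 and 387. Erythroid genes (11) summed to between 103 and 144 in controls and between 110 and 138 in unloaded animals, and marrow stromal genes (10) to between 69.9 and 88.1 and between 81.4 and 91.5. The neutrophil list ranged from 744 to 869 and from 792 to 848, and the platelet list from 110 to 154 and from 121 to 151. None of the 9 lists held a called gene. Body weight was 28.6 g ± 1.78 (SD, n = 5) in controls and 27.3 g ± 1.72 (SD, n = 5) in unloaded animals (exact permutation p = 0.278, two-sided, 252 assignments, the smallest possible p being 0.00794). Control 3, with high fat gene levels, was the heaviest animal at 31.3 g, and unloaded 5, with high levels too, weighed 25.67 g.

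Beyond the members, 8 lists of other fat and insulin pathway genes held 123 genes, of which 122 were tested. None was called (0 of 122), 66 were higher and 56 lower, and 20 (16.4%) had an unadjusted limma p below 0.05, against 15.8% of all genes. The groups did not overlap for 2 of them (1.64%), Cideb and Npr1, against 3.3% of all genes. In each list up to 3 genes with the smallest p are named below.

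Of 15 transcription factors of fat cell formation, 6 were higher and 9 lower, with a median of -0.04. Cebpb, an early factor of adipogenesis, had levels of 2.90, 3.01, 2.80, 3.00 and 2.92 in controls and 3.38, 2.98, 3.52, 3.16 and 3.90 in unloaded animals (difference 0.46, SE 0.15, limma adjusted p = 0.245). Unloaded 2 alone lay within the control range. Klf15, a factor of fat cell differentiation that glucocorticoids induce, differed by 0.30 (SE 0.11, limma adjusted p = 0.258) but by 0.16 as the mean of its probes and by 0.02 with slide as a block, and Srebf1, which drives genes of fatty acid synthesis, by -0.17 (SE 0.09, adjusted p = 0.347). Among 13 other droplet proteins and lipase cofactors (6 higher, 7 lower, median -0.01), Cideb, a CIDE protein best known from liver, lay between -3.17 and -2.70 in controls and between -2.70 and -2.35 in unloaded animals, just clear of each other (difference 0.39, SE 0.11, limma adjusted p = 0.238, and 0.22 after normexp background correction). Plin3, a perilipin of many tissues, differed by 0.29 (SE 0.13) and Plin4 by -0.38 (SE 0.25), and neither passed (without control 2 the Plin4 difference was -0.21).

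The 18 other enzymes of triglyceride synthesis had a median of 0.09, with 13 higher and 5 lower. Gpat3 and Agpat3, enzymes of successive acylation steps, had opposite signs at -0.30 (SE 0.12) and 0.28 (SE 0.12), and Lpin2 differed by -0.20 (SE 0.09), with limma adjusted p-values between 0.277 and 0.304. Averaged over their probes, Agpat3 differed by 0.10 and Lpin2 by -0.11. For 16 uptake genes (10 higher, 6 lower, median 0.06) the largest was Gpihbp1, the endothelial protein that anchors lipoprotein lipase, at 0.33 (SE 0.13, limma adjusted p = 0.271). Slc27a1, a fatty acid transporter, differed by 0.18 (SE 0.10) and Cav2, a caveolar protein, by -0.22 (SE 0.14, and -0.05 as the mean of its probes). The 16 genes that control lipolysis (10 higher, 6 lower, median 0.09) held the smallest adjusted p of all these lists. Adora1, the adenosine receptor that restrains lipolysis, had levels of -2.06, -1.96, -1.95, -1.69 and -2.21 in controls and -1.53, -1.80, -1.44, -1.59 and -1.31 in unloaded animals (difference 0.44, SE 0.12, limma adjusted p = 0.218). Unloaded 2 lay below control 4, and the other 4 unloaded animals lay above all controls. Averaged over the gene's 3 probes, of which 1 had the opposite sign, the Adora1 difference was 0.08 (limma adjusted p = 0.703). Npr1, the receptor through which atrial natriuretic peptide promotes lipolysis, differed by 0.28 (SE 0.09, limma adjusted p = 0.252), and Adra2a, which restrains it, by 0.31 (SE 0.11, adjusted p = 0.26). Npr1 came to 0.17 after normexp correction and Adra2a to 0.20 as the mean of its probes.

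Other adipokines and genes enriched in fat cells (18 genes, 12 higher and 6 lower, median 0.04) included Nnat, neuronatin, at -0.47 (SE 0.16, limma adjusted p = 0.252), Nampt, the adipokine also called visfatin, at -0.27 (SE 0.11, adjusted p = 0.271), and Lgals12, a galectin of fat cells, at 0.16 (SE 0.09, adjusted p = 0.392). All 5 unloaded animals were below the control median for Nnat and for Nampt. As the mean of its 2 probes Nampt differed by -0.04, with slide as a block Nampt came to -0.06 and Nnat to -0.24, and median scaling or quantile normalization took Lgals12 to 0.06. In insulin signalling, where 13 of 14 genes were tested (4 higher, 9 lower, median -0.10), the transcription factor Foxo1 had levels of 1.80, 1.96, 1.80, 2.10 and 1.84 in controls and 1.55, 1.82, 1.56, 1.47 and 1.14 in unloaded animals (difference -0.39, SE 0.12, limma adjusted p = 0.243). The insulin receptor Insr differed by -0.31 (SE 0.10, adjusted p = 0.252) and the basal glucose transporter Slc2a1 by 0.31 (SE 0.11, adjusted p = 0.258). Unloaded 2 was the only unloaded animal within the control range for Foxo1, whose difference was -0.20 with slide as a block. Insr differed by -0.13 as the mean of its 2 probes and by -0.18 with slide as a block. Among 13 brown and beige fat genes (5 higher, 8 lower, median -0.06), Otop1 differed by 0.44 (SE 0.16), Bmp7, a bone morphogenetic protein that also promotes brown fat, by 0.28 (SE 0.12), and Cox8b, a cytochrome oxidase subunit of brown fat and muscle, by -0.43 (SE 0.22), with unloaded 1, the animal highest on the muscle list, at 1.55 and the other unloaded animals between 0.45 and 1.05. None of these passed the test, the smallest adjusted p being 0.254. After normexp correction Otop1 differed by 0.09 (limma adjusted p = 0.88).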

How the data were processed

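Each array held 41174 gene probes. Spot intensity was deposited as linear scanner output; per the file headers, Agilent Feature Extraction 9.1.3.1 (protocol GE1-v5_91_0806, design 014868) corrected the background and detrended the signal of each array on its own, without scaling one array to another. A matrix deposited for the whole series holds that processed intensity again, linear and uncentred, rounded to 3 digits (ratios of 0.995 to 1.005). Its column medians were 335, 332, 303, 261 and 306 in the controls (1 to 5) and 315, 269, 253, 311 and 291 in the unloaded mice (1 to 5). With a single colour it carries no direction, and it was used in an alternative.

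The log2 values reported were computed here from the deposited processed intensity by subtracting, on the log2 scale, each array's 75th percentile (636.5 to 903.3 intensity units). Spots of a probe were averaged after 97 outlier spots had been dropped. Testing required a probe to be well above background on 4 of 5 arrays in either group and to have at least 3 values in both. A gene took its brightest tested probe. Among the 34 tested members, 19 had further tested probes, which shared the sign in 13. Names came from RefSeq GRCm38.p6, through the accession for 22951 probes. The comparison used limma 3.58.1 under R 4.3.3 (lmFit, then eBayes; two-sided; group as the only term), and p-values were adjusted by Benjamini-Hochberg over 38629 probes with a threshold of 0.05. Body weight was compared by exact permutation. Animals are numbered separately in the labels and count as biological replicates. The fitting code was tested on simulated data, and figures were drawn with matplotlib 3.10.9.

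The members and the gene lists were chosen with earlier results of these data known. All members are named whatever their result. Pathway lists contribute called genes first and then those with the smallest p, up to 3 each, and marker lists contribute counts and levels. The alternatives changed the background correction, scaling, treatment of dim probes, source table, variance model, array weights, slide, replicate number, body weight, choice of probe, or omitted each array in turn.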

Additional observations from a re-analysis of the deposited data

Results flagged for a closer look

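Among 5 animals of a group, a value was singled out when its gap to the next animal exceeded 0.71 of the group's range (Dixon's 95% value), which chance does in about 1 of 20 groups; 5 of 116 groups did so, 2 of them among the 68 member groups. Cidea in control 4 stood at -0.66 with the nearest control at -1.23. Pnpla2 in unloaded 5 stood at 2.88 with the nearest unloaded animal at 2.39. Outside the members, Klf15 in control 5 was at -1.70 (nearest -1.99), Plin3 in unloaded 5 at 3.28 (nearest 2.88) and Cav2 in unloaded 2 at -0.78 (nearest -1.13).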

How the results depend on the processing

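No member was called under any alternative, with a smallest limma adjusted p of 0.14, and the control and unloaded animals overlapped for every tested member in 24 alternatives. Alternatives that changed only the model, such as array weights, slide or body weight, used the same values, so the overlap could not change there. The median difference of the members lay between -0.13 (median scaling) and 0.02 (without control 3). Their median level had an SD of 0.25 between single arrays, which is not the error of a group difference. Of the 34 members 11 kept their sign in all 24 alternatives. After each probe's group mean had been subtracted, control and unloaded arrays of equal number correlated at -0.05, 0.18, -0.11, -0.14 and 0.07. The labels state no pairing of the animals by number. With the replicate number as a block 3 members had an unadjusted limma p below 0.05 (Pck1, Lpl and Car3) and none was called. Leaving out each array gave between 1 and 5 such members, with 5 without control 1 (Pck1, Car3, Cidec, Scd1 and Gpd1), 3 without unloaded 2, and 2 without control 5 or unloaded 5. In the main fit 15.8% of all genes had an unadjusted limma p below 0.05. That share was not computed for these alternatives, so the counts are no result about the members. Scaling on the array median moved the median of all probes from 0.07 to -0.03 and turned Adipor2 to -0.08, Slc2a4 to -0.07, Dgat1 to -0.04 and Thrsp to -0.03. Quantile normalization turned Adipor1 to 0.04, Plin2 to 0.03 and Mgll to 0.02, and array weights turned Adipor1 to 0.01 and Plin2 to 0.04. Averaging all probes of a gene, or those measured on every array, turned Adipor1 to 0.04 and Adipor2 to -0.12. With body weight as a covariate Cfd came to 0.08, Adipor1 to 0.01, Cd36 to 0.01, Fabp4 to 0.08, Plin2 to 0.06 and Mgll to 0.05.

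With slide as a fixed block, and equally on slide 2 alone, where 1 control stands against 3 unloaded animals, the members that reversed were Lpl (0.31), Scd1 (0.24), Car3 (0.24), Gpd1 (0.14), Cd36 (0.12), Lpin1 (0.11), Mgll (0.06), Fabp4 (0.03), Pnpla2 (-0.01), Adipor2 (-0.05), Dgat1 (-0.07), Agpat2 (-0.12) and Ucp3 (-0.15), and of the other pathway genes Plin3 (-0.07), Agpat3 (-0.04), Slc27a1 (-0.02), Cox8b (0.07) and Cav2 (0.14). Slide as a random block, in which arrays of a slide correlated at -0.03 once the group difference was fitted, turned no member. Leaving out each array in turn gave ranges across 0 for Cfd (-0.39 to 0.10), Plin1 (-0.31 to 0.01), Fabp4 (-0.13 to 0.09), Lep (-0.10 to 0.07), Fabp5 (-0.12 to 0.03), Acsl1 (-0.09 to 0.01), Plin2 (-0.09 to 0.06), Mgll (-0.07 to 0.03), Adipor1 (-0.07 to 0.03), Adipor2 (-0.03 to 0.05), Slc2a4 (-0.08 to 0.13), Aqp7 (-0.01 to 0.20), Thrsp (-0.02 to 0.13) and Dgat1 (-0.02 to 0.09). Of the 22 members with a difference of at least 0.1 either way, 21 moved by over 1.5 times, in size or past 0, when some array was left out. The cause of these changes was not tested. The body weight difference lay between -1.83 and -0.633 g as single animals were left out. The tested members were required to be well above background on 4 of 5 arrays of a group. When all 10 arrays had to be so, 34 members were still tested, and their median difference was again -0.03. Whether low signal limited the size of any difference was not tested. Adrb3 has no difference in the main fit because its probe was not well above background on any array. It was fitted only in the alternative without a filter on dim probes. Slide largely follows group, and fat cell number and RNA per cell cannot be told apart.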
